A study of Homo sapiens with 6 samples.

Results

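The HOX genes of the 4 clusters encode the homeodomain transcription factors that give cells their position along the body axis. All 39 protein-coding genes whose symbol is HOXA, HOXB, HOXC or HOXD followed by a number fall under the rule, and 38 of them were studied, out of 20033 protein-coding genes. The remaining gene was not analysed here. The rule itself uses no measured value. Each gene was read through a window made of its annotated GRCh38 span plus 2 kb on either side, and a gene counted as having a peak when at least 1 bp of a peak lay in that window. The data were from the assay for transposase-accessible chromatin (ATAC-seq), in which a transposase inserts sequencing adapters where DNA is free, so that a peak marks a stretch of accessible DNA. The cells were NCI-H1703, an established line from a lung squamous cell carcinoma. In 3 libraries (titled ASO, here silenced 1 to 3) the cells had been treated to silence DLGAP1-AS2, a long non-coding RNA, and 3 libraries (titled NC, here control 1 to 3) came from control cells; what the control cells received was not given in the sources used here. All 6 libraries share the line, the tissue label and the protocol, which started from 10000 to 50000 cells. Nothing in the labels says that libraries of a group came from separate cultures, so p-values between the groups measure only the spread between these libraries.

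HOX genes stand side by side in 4 clusters on different chromosomes, and genes at the same place in different clusters, the paralogues, carry the same number. During development the low-numbered genes at one end of a cluster are switched on early and towards the head, and the high-numbered genes at the other end later and towards the tail. Polycomb proteins keep unused stretches closed, trithorax and MLL proteins keep used ones open, and PBX and MEIS proteins bind DNA together with the HOX proteins. Adult tissues and tumours keep part of this positional pattern, and HOX genes are often misused in cancers.

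Of the 4 clusters, HOXA on chromosome 7 ran from 27100354 to 27200091 over the 10 members analysed. HOXB on chromosome 17 ran from 48528526 to 48728750 (10 members, with HOXB13 far from the rest), HOXC on chromosome 12 from 53938831 to 54056030 (9 members), and HOXD on chromosome 2 from 176087487 to 176190907 (9 members). Windows overlapped in 19 pairs of members, so 24 members shared bases with a neighbour, and 14 shared none. HOXC4, HOXC5 and HOXC6 are annotated with the same start, and the span of HOXA3 holds those of HOXA4, HOXA5 and HOXA6, so these genes were not independent of each other.

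The 6 peak lists differed in length and background. They held 91346 (control 2) to 170882 (control 1) peaks. Silenced 3 had the lowest background coverage, a pileup of 0.237 against 0.369 to 0.464 in the others, and it gave the lowest height in 27 of the 31 HOX regions that were called in every library. Control 2 had the shortest list and a lowest peak height of 3, where the other lists went down to 2. At an authors' false discovery rate (FDR) of at most 1e-05, here a strict peak, the lists held 24487 (silenced 3) to 37323 (control 2) peaks. The number of reads behind a list was unknown, and heights, fold enrichments and FDRs are the authors' values for each peak. A peak list holds no RNA, so the silencing itself was not measured; at the DLGAP1-AS2 gene the highest peak stood at 29, 30 and 14 in the silenced and 21, 34 and 23 in the control libraries. Of 7 squamous markers, TP63 and SOX2 had a strict peak in every library, PKP1 in 1, and KRT5, KRT6A, KRT14 and DSG3 in none. Other marker lists had such genes too: 2 of 4 epithelial, 1 of 3 lung adenocarcinoma and alveolar (NKX2-1) and 1 of 3 mesenchymal markers (VIM). So had 2 of 2 endothelial and 0 of 3 blood markers. Of all protein-coding genes 61.1% had a strict peak in every library, so these counts do not set the cell type.

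Promoters showed the range of states inside one cluster. RefSeq (GRCh38.p14) gave 26 distinct promoter stretches for 20 of the 38 members, each with 250 bases before and 50 after a transcription start. Peaks covered at least part of 7 of the 26 in every library, of 4 in some libraries and of 15 in none. Shown first are the promoters with the highest and the lowest coverage in HOXD, the most covered cluster, and the HOXC stretch with an entry, HOXC being the least covered. The HOXD11 stretch (chr2:176107030-176107329, plus strand) was covered over 97.0, 100, 100% of its bases in the silenced and 100, 76.0, 100% in the control libraries. HOXD4 (chr2:176151300-176151599, plus strand) was one of 3 HOXD stretches with no peak in any library, the others being HOXD10 and HOXD12. The HOXC stretch (chr12:54016638-54016937, plus strand) belongs to the start shared by HOXC4 and HOXC5 and had no peak in any library. Letters in capitals mark matches to any of 5 short motifs, on either strand, and matches that overlap were both counted: GGAATG for TEAD factors, TGANTCA for AP-1, TGATTNAT for HOX with PBX, TATAAA for the TATA box and CCAAT for the CCAAT box.
HOXD11: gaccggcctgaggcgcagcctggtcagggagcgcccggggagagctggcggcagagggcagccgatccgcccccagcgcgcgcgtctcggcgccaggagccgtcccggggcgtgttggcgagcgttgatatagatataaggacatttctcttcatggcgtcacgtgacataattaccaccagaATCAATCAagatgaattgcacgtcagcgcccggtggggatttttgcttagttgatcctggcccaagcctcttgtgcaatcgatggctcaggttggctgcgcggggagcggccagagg
HOXD4: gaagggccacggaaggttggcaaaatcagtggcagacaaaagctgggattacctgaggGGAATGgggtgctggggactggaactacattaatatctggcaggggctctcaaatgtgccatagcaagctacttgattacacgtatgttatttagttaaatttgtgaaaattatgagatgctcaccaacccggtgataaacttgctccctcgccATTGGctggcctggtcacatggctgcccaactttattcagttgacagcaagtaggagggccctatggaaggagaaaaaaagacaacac
HOXC4 and HOXC5: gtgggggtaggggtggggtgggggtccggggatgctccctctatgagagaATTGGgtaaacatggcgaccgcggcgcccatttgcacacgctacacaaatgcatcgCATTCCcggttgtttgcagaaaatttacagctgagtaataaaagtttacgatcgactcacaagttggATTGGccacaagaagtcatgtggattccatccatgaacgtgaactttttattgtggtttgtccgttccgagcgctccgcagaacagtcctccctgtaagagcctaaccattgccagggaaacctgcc

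A pair of HOXA promoters, with HOXA5 between them, was chosen after their values were seen and made the same contrast at similar CpG ratios. HOXA4 (chr7:27130708-27131007, minus strand) was covered over 75.7, 83.3, 66.7% of its bases in the silenced and 75.3, 77.0, 100% in the control libraries. HOXA6 (chr7:27147725-27148024, minus strand) had no peak in any library. Their ratios of observed to expected CpG were 1.03 and 1.06, and both held 1 CCAAT match and no other motif.
HOXA4: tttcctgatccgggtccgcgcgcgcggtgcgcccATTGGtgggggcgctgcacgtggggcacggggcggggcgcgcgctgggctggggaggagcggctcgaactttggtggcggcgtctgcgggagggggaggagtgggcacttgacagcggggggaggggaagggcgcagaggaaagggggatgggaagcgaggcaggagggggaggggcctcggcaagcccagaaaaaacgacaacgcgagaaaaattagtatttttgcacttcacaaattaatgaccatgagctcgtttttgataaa
HOXA6: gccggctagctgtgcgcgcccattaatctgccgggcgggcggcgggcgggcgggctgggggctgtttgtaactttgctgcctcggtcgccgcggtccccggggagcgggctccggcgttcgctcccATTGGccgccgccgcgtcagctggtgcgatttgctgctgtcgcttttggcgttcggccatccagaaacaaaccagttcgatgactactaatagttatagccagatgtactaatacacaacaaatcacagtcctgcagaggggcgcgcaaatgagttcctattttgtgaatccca

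The covered HOX promoters had a median GC content of 63.3% and the uncovered ones of 51.3%, and their CpG content overlapped. The median ratio of observed to expected CpG was 0.938 in the 7 stretches covered in every library, with a range of 0.631 to 1.05, and 0.755 in the 15 covered in none, with a range of 0 to 1.27. The HOXD4 stretch was CpG-poor, at 0.244. The covered stretch at 0.631 was a start of HOXA3 (chr7:27113793-27114092), with a mean of only 13.8% of its bases in peaks. HOXA3 gave more stretches than any other member, in both sets, so the stretches did not stand for separate genes. Over the 26 HOX stretches the median was 0.855, and over all 34943 stretches of the table it was 0.577. The CCAAT box stood in 65.4% of HOX stretches and 34.6% of all, the TATA box in 19.2% and 11.6%, the TEAD motif in 26.9% and 14.04%, and the HOX-PBX motif in 7.69% (HOXD11 among them) and 2.82%. No HOX stretch held the AP-1 motif, which 7.72% of all stretches held. These are matches of letters only, and binding was not measured.

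Most HOX genes had a peak in this line. A peak lay in the window in all 6 libraries for 28 of the 38 members, and 79.4% of all protein-coding genes had one as often. Only HOXA6, HOXA7 and HOXD4 had no peak in any library, where 5.45% of all genes had none. At an unknown read depth, a missing peak does not show that the DNA is closed. Strict peaks were called in all 6 libraries at 14 members (61.1% of all genes) and in none at 12 (21.3% of all genes); 18 members had a strict peak in every library other than silenced 3, as did 68% of all genes. HOX windows are short, with a median of 7786 bp against 28130 bp over all genes, so a gene window of theirs has fewer bases in which a peak can fall.

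By the share of bases inside peaks, HOX windows were more covered than the typical gene window. The joined HOX windows, 370733 bp in all, were covered over 5.21, 5.98 and 3.65% of their bases in the silenced libraries and 5.95, 5.20 and 5.58% in the control libraries. The windows of all protein-coding genes were covered over 1.52 to 2.26% in the same libraries. With strict peaks the means over 6 libraries were 3.04% ± 0.878 (SD) and 0.900% ± 0.164. The median member reached 5.35%, against 2.75% for the median gene, and 27 of the 38 members were above the median of all genes. Window length differs between these sets and moves with this comparison, and its part was not tested.

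**Figure D1:**
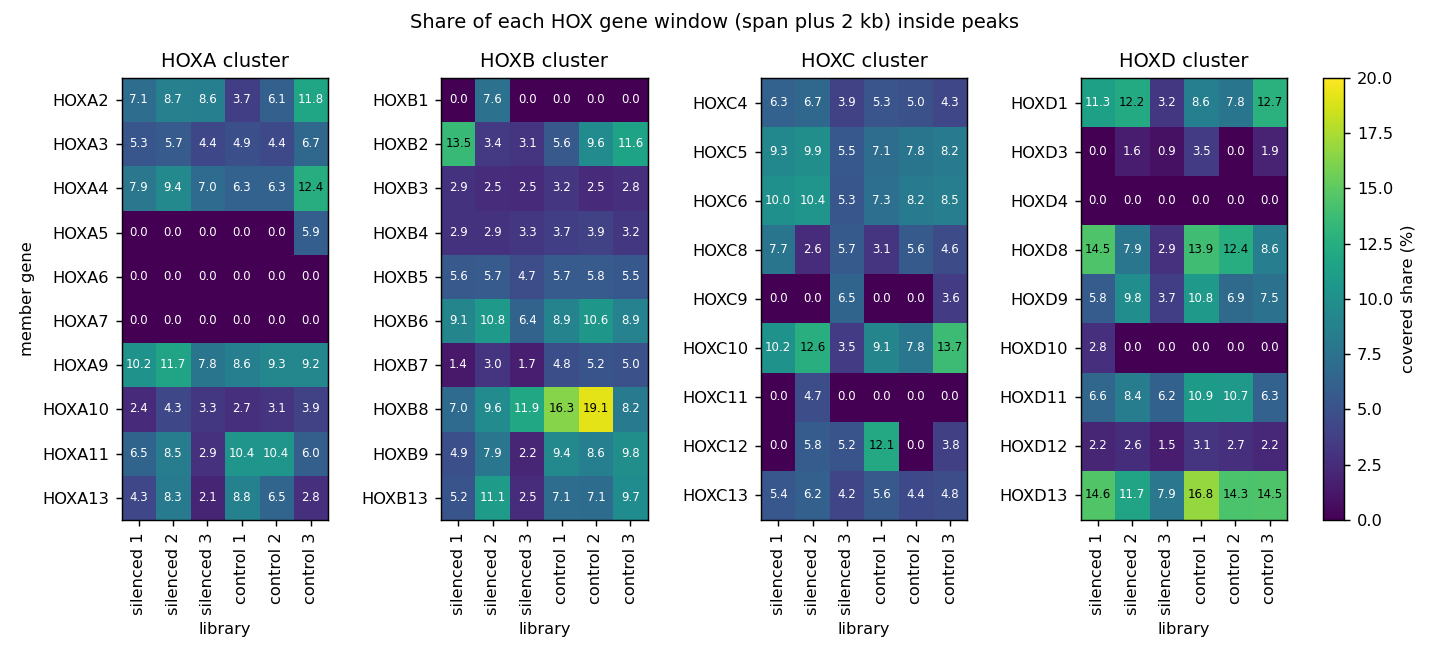
Covered share (%, colour and number) of each of the 38 HOX gene windows, in rows by cluster and paralogue number, in the 3 silenced and 3 control libraries, in columns. HOXA6, HOXA7 and HOXD4 are at 0 in every library, and HOXD13 is between 7.91 and 16.8%.

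In all 4 clusters the member windows were more covered than the chromosome around the cluster. Coverage of the windows was compared within each library with that of the 1 Mb on each side of the cluster, by a two-sided exact sign-flip test over the 6 libraries, a comparison chosen after the values were seen. HOXD windows were covered over 6.03% of bases and the surroundings over 1.19%, a ratio of 5.08. For HOXA the values were 5.23 and 1.94% (ratio 2.69), for HOXB 5.05 and 3.23% (1.56), and for HOXC 4.87 and 3.15% (1.55). Windows were higher in 6 of 6 libraries for each cluster, and each exact p was 0.03125, the smallest that 6 libraries allow, or 0.03125 after Benjamini-Hochberg adjustment over the 4 clusters. The surroundings differed more between clusters, from 1.19 to 3.23%, than the windows did, from 4.87 to 6.03%. The windows hold gene starts by construction, and the surroundings hold genes and the DNA between them. DNA between member windows inside a cluster was on neither side. All 6 libraries read the same line, so these p-values measure how far the difference repeated between libraries. Windows of other genes were not set against their surroundings, so whether the gap is particular to HOX genes was not tested.

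Among the clusters themselves no difference passed the adjusted test. HOXD windows were covered over 6.19, 6.09 and 3.27% in the silenced and 8.24, 6.20 and 6.20% in the control libraries. HOXB windows were covered over 4.73, 5.54 and 3.20% in the silenced and 5.53, 5.83 and 5.43% in the control libraries, below HOXD in 6 of 6 libraries. The difference of HOXB minus HOXD, -0.987 percentage points, gave an exact sign-flip p of 0.03125, adjusted to 0.188 over 6 pairs of clusters. With no flank around the gene spans its sign turned, to 0.561 points higher in HOXB. The other 5 pairs had adjusted exact p-values of 0.328 to 0.75.

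**Figure D2:**
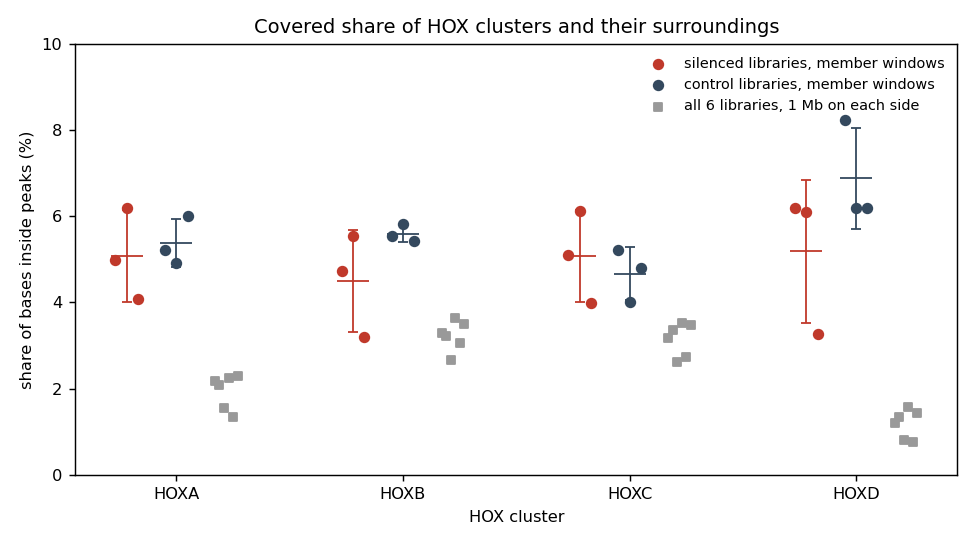
Share of bases inside peaks (%) for the member windows of each HOX cluster in the 3 silenced (red) and 3 control (blue) libraries, with horizontal lines at the mean and bars of 1 SD, and for 1 Mb on each side in all 6 libraries (grey squares). Every window value lies above the surroundings of the same library, with the widest gap at HOXD (6.03 against 1.19%).

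In HOXD the covered genes lay at the high-numbered end, with HOXD1 apart from them. HOXD13, a gene of digit and genital development, was the most covered member of all, at 14.6, 11.7 and 7.91% in the silenced and 16.8, 14.3 and 14.5% in the control libraries. Its mean of 13.3% ± 3.10 (SD, n = 6) stood at percentile 96.2 of all genes. HOXD8 to HOXD13, other than HOXD10 and HOXD12, had means of 7.42% (HOXD9) to 13.3%. HOXD12 was at 2.39%. HOXD10 had 1 peak, of height 5, in silenced 1 alone. HOXD4 had none, and HOXD3 had peaks of height 3 at most, in 4 libraries. HOXD1, beyond that stretch, was covered over a mean of 9.32% ± 3.59 (SD, n = 6).

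In HOXA the members with few or no peaks were central. HOXA5, which is needed for lung and airway development in the mouse, had 1 peak, of height 3, in control 3 alone. HOXA6 and HOXA7 next to it had none. Between the windows of HOXA6 and HOXA7 lay a region over one of the annotated starts of HOXA3 (chr7:27150411-27151526), called in every library with heights of 22, 20 and 7 in the silenced and 23, 29 and 18 in the control libraries, so the stretch as a whole was not free of peaks. The windows of HOXA2 (7.68%) and HOXA4 (8.23%) on the low-numbered side were covered in every library, as was that of HOXA3 (5.23%), whose span reaches across that stretch. The HOXA2 peaks lay outside the gene, beyond the end opposite its start. Its region shared by all libraries (chr7:27098024-27098987) was 1367 bp away, and its RefSeq promoter had no peak in any library. On the high-numbered side HOXA9, known as a leukaemia gene together with MEIS1, was the most covered of the cluster, at 10.2, 11.7 and 7.77% in the silenced and 8.65, 9.27 and 9.23% in the control libraries. The region shared by all libraries there (chr7:27160559-27161483) lay 955 bp beyond the far end of HOXA9, opposite its annotated start, and the RefSeq promoter had no peak. HOXA10 (3.29%), HOXA11 (7.44%) and HOXA13 (5.46%), genes of the reproductive tract and limb, each had a peak in every library.

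HOXB had a peak in every library at 9 of its 10 members. HOXB8, a regulator of blood cell progenitors, was covered over 7.0, 9.63 and 11.9% in the silenced and 16.3, 19.1 and 8.18% in the control libraries. HOXB1, which specifies a segment of the hindbrain, was the exception: 7.55% in silenced 2, from 2 peaks of height 3, and 0 in the other 5 libraries. HOXB3, HOXB4 and HOXB5 varied least, with SDs of 0.282, 0.399 and 0.414 points over the 6 libraries around means of 2.73, 3.32 and 5.50%. HOXB4, used to expand blood stem cells, had no strict peak in any library. HOXB13, a gene of prostate development at the far end, was covered over a mean of 7.12% ± 3.07 (SD, n = 6).

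In HOXC, regions shared by all libraries lay at HOXC13, at HOXC10, just beyond HOXC8 and inside HOXC4, whose span holds those of HOXC5 and HOXC6. HOXC10, a gene of the lower spinal cord and hindlimb, was covered over 10.2, 12.6 and 3.55% in the silenced and 9.07, 7.85 and 13.7% in the control libraries. HOXC11 beside it was at 0 in 5 libraries and at 4.70% in silenced 2, from 2 peaks of heights 3 and 2. HOXC9 had a peak in 2 libraries and HOXC12 in 4, none of them strict. HOXC13, which controls hair and nail keratins, was covered over 5.08% ± 0.770 (SD, n = 6). HOXC4, HOXC5, HOXC6 and HOXC8 were called in every library, HOXC8 with no strict peak.

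**Figure D3:**
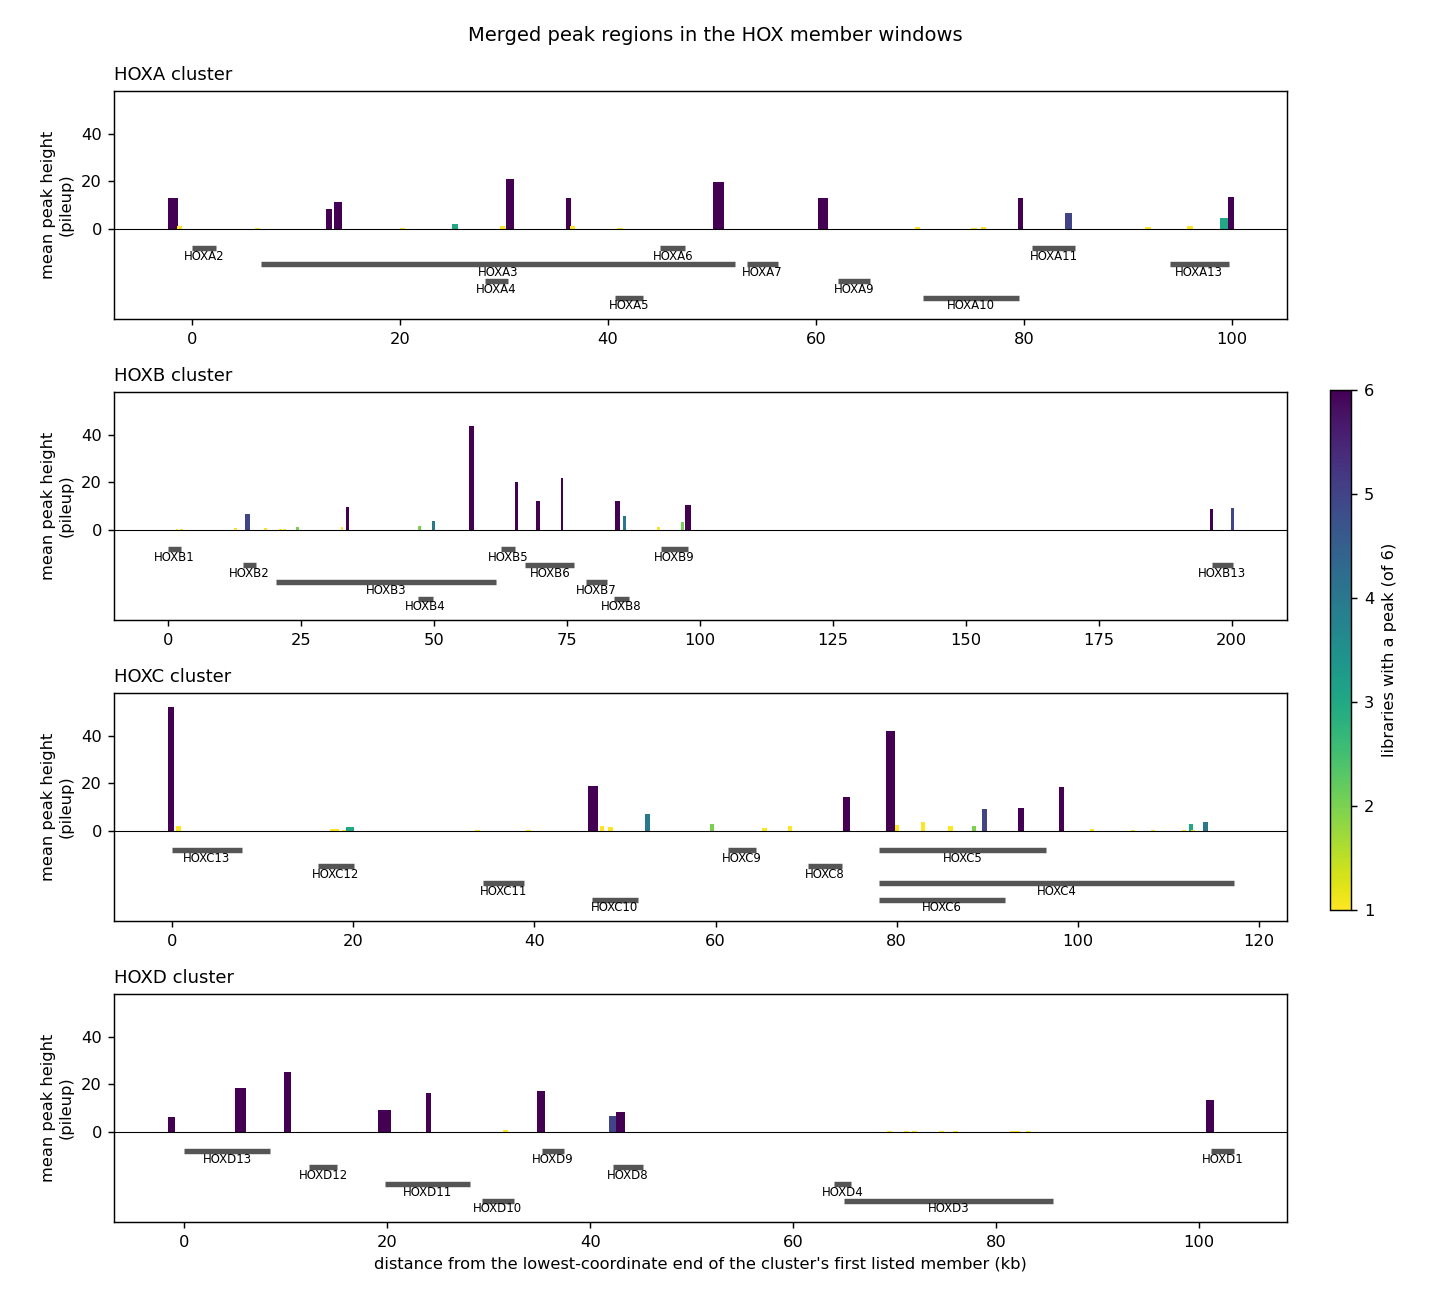
Map of each HOX cluster. Bars are the 96 merged peak regions in the member windows, drawn at their distance (kb) from the lowest-coordinate end of the first listed member, with the mean height over 6 libraries (pileup, a library without a peak counted as 0) and coloured by the number of libraries with a peak; grey lines are gene spans. Inside the windows, tall regions shared by all 6 libraries alternate with stretches that hold no region or only faint ones, as at HOXD4 and HOXD3. Peaks in the DNA between windows are not drawn, so blank stretches there do not show that peaks were missing.

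Coverage did not follow paralogue number closely. Across the 38 members, which share libraries and in part bases, Pearson's r between paralogue number and mean covered share was 0.140 and Spearman's rho 0.0848. By class, the windows of paralogues 1 to 3 (anterior, 7 members) were covered over 3.99% ± 0.771 (SD, n = 6), those of 4 to 8 (central, 15 members) over 5.06% ± 0.663 and those of 9 to 13 (posterior, 16 members) over 6.04% ± 1.36. The anterior windows, 144787 bp in all, took in the long windows of HOXA3 (49574 bp) and HOXB3 (45372 bp), whose spans also hold central genes. With bases of 1 class only, an alternative added after seeing the data, anterior windows were covered over 4.51% and posterior ones over 6.04%. Per gene, the median covered share was 5.23% (anterior), 5.25% (central) and 6.29% (posterior). Anterior minus posterior was -2.05 points, negative in 6 of 6 libraries, with an exact sign-flip p of 0.03125 that became 0.0938 after adjustment over 3 pairs. In peak sets with equal list sizes or with a height of at least 4, and with a 5 kb flank, this difference passed, at an adjusted exact p of 0.0469. It was smaller with strict peaks, -0.964 points (adjusted exact p = 0.0938), and without a flank, -0.482 points (adjusted exact p = 0.4375), and missed the threshold in both. The 3 members without a peak were all central, and all 4 paralogues numbered 13 had one in every library.

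Many HOX regions were shared, and most of these ranked below the median shared region in strength. Peaks of the 6 lists merged into 96 regions in the HOX windows, of which 31 (32.3%) were called in all 6 libraries. Over the whole genome 7.35% of 507440 merged regions were. The whole-genome set takes in DNA between genes, and the share over regions in gene windows alone was not computed. Regions called in 1 library alone made up 49.0% of the HOX regions and 74.1% of all. Of the 31, 12 touched an annotated gene start or end and 21 lay within 1 kb of one. Ranked by fold enrichment among the 37284 regions called in every library, the 31 HOX regions had a median percentile of 39.4, and 7 were above the middle of the ranking. Their quartiles were at percentiles 16.7 and 48.9.

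A few regions stood high. The region at HOXC13 (chr12:53938346-53939036), over the lower end of the gene, had heights of 52, 58 and 36 in the silenced and 51, 56 and 60 in the control libraries, at a mean percentile of 91.2. Inside HOXB3 (chr17:48585208-48586044), a region 4197 bp from the nearest gene end had heights of 41, 59 and 20 in the silenced and 46, 46 and 50 in the control libraries, at percentile 92.6. In both, silenced 3 was the lowest library. In HOXA the first was the HOXA4 start (chr7:27130570-27131345), with heights of 26, 21 and 4 in the silenced and 20, 26 and 28 in the control libraries and a percentile of 64.8. In HOXD it lay between HOXD13 and HOXD12 (chr2:176097337-176098003), with heights of 24, 34 and 16 in the silenced and 26, 21 and 30 in the control libraries and a percentile of 64.6.

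Height and enrichment parted in HOXC. The region just inside HOXC4, HOXC5 and HOXC6 (chr12:54017607-54018656), 719 bp past their shared start, had heights of 47, 40 and 18 in the silenced and 45, 53 and 49 in the control libraries, yet a percentile of 44.1. The one 129 bp beyond the upper end of HOXC8 (chr12:54012898-54013646) had a mean height of 14.3 and a percentile of 3.50, the lowest of the 31. The local background that each fold enrichment was set against, read back from height and fold, was 12.8 and 10.2 times the library's own lowest background there. At the median peak it was 5.02 ± 0.484 (SD, n = 6) times in HOXC windows, 3.20 ± 0.585 in HOXB, 2.90 ± 0.320 in HOXD and 2.56 ± 0.483 in HOXA. In the 1 Mb on each side it was 2.14, 2.31, 1.02 and 1.23 times in the same order, and 1.22 times over whole lists. Copy number of these stretches was not measured, and its part in the height was not tested.

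**Figure D4:**
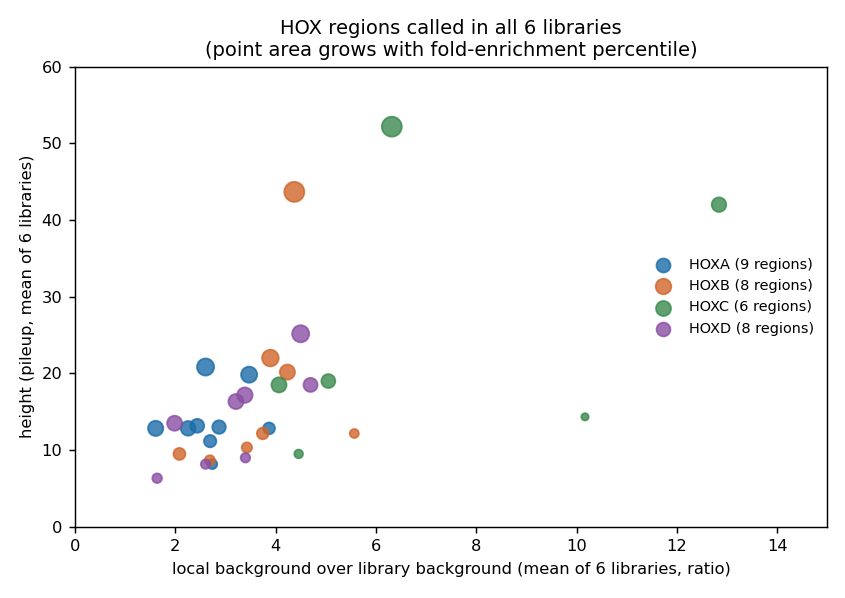
The 31 HOX regions called in all 6 libraries, by local background over the library's background (ratio, mean of 6 libraries) and height (pileup, mean of 6 libraries); colour gives the cluster, and point area grows with the percentile of fold enrichment. The HOXC4, HOXC5 and HOXC6 region at a ratio of 12.8 is the third tallest, at a mean height of 42.0, but has a smaller point than the 2 taller ones, and the HOXC8 region at 10.2 has the smallest.

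Between silenced and control libraries, none of the 8 HOX measures compared per library passed the exact test. At 3 libraries a group this test could not reach 0.05. HOX genes with a peak numbered 29, 32 and 31 in the silenced and 30, 28 and 32 in the control libraries (30.7 ± 1.53 against 30.0 ± 2 SD, n = 3 each; two-sided exact permutation p = 0.8). Peaks in HOX windows numbered 50, 60 and 47 against 58, 47 and 52 (exact permutation p = 1). Members with a peak within 1 kb of a start numbered 22, 25 and 19 against 24, 22 and 24 (exact permutation p = 0.7). For the 18 members with no start given, a peak near either gene end was counted. With 3 libraries a group the smallest possible p was 0.1. Only the HOXD covered share reached it, as 6.19, 6.09 and 3.27% against 8.24, 6.20 and 6.20%, and the adjusted exact p over the 8 measures was 0.8. There the highest silenced and the lowest control library were at 6.19 and 6.20%. The difference of means fell from -1.70 points to -0.740 without silenced 3. With strict peaks alone the highest silenced library for HOXD was at 3.37% and the lowest control library at 3.90%. The HOXD difference was then -1.52 points, and without a flank -2.01 points (exact permutation p = 0.1, adjusted 0.4, in both). It stayed negative with equal list sizes, heights of at least 4 and a 5 kb flank (exact permutation p = 0.2, 0.2 and 0.5). Silenced minus control, the covered share differed by -1.11 points for HOXB (exact permutation p = 0.3). With strict peaks alone HOXB was covered over 1.89, 3.20 and 1.36% in the silenced and 3.44, 4.36 and 3.85% in the control libraries, so that the groups did not overlap, a difference of -1.73 points (exact permutation p = 0.1, the smallest possible; adjusted 0.4). That smallest p was also reached with equal list sizes, with heights of at least 4 and without a flank. Over the windows of all protein-coding genes strict peaks covered 0.883, 0.999 and 0.577% in the silenced and 0.976, 0.980 and 0.983% in the control libraries. The groups overlapped there, but silenced 1 and silenced 3 were the lowest there too. Covered shares were not scaled for this, and its part in the HOXB and HOXD differences was not tested. For all clusters together the covered share, over all peaks, differed by -0.633 points (exact permutation p = 0.7), and by 0.0156 points without silenced 3.

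Gene by gene, no HOX gene passed either. Covered shares were ranked within each library over the 18942 protein-coding genes with a peak in at least 1 library, the ranks were turned into normal scores (units of 1 SD over genes), and limma compared the groups. At an adjusted p under 0.05 it called 0% of genes higher and 0% lower; before adjustment 4.61% had a p under 0.05, 2.26% higher and 2.35% lower in silenced cells. Of the 38 members 35 had a peak and were tested, of which 16 had higher and 19 lower scores in the silenced libraries. None of the 35 passed after adjustment (limma, smallest adjusted p = 0.975), and 2 had an unadjusted p under 0.05, both lower. The median difference of the 35 was -0.114, against 0.00698 over all genes, and the median 95% interval reached 0.657 units to either side. In simulated data the test recovered 76.5% of shifts of 2 units and 0% of shifts of 1 unit, so shifts of 1 unit were below what it could call.

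HOXB7 and HOXB9 were those 2 genes, and the only members with groups that did not overlap. HOXB7 was covered over 1.40, 3.03 and 1.66% in the silenced and 4.84, 5.23 and 4.98% in the control libraries. All 3 silenced values lay below all 3 control values, and the score difference was -1.03 (SE 0.227, 95% interval -1.57 to -0.488, limma, adjusted p = 0.975). The peak behind it (chr17:48612611-48613569) lies at the edge of the HOXB7 window and inside HOXB8, whose own shares overlapped between the groups. HOXB9 was covered over 4.86, 7.87 and 2.17% in the silenced and 9.41, 8.64 and 9.84% in the control libraries, a difference of -0.77 (limma, adjusted p = 0.975), which was -0.47 without silenced 3. Ranked by the highest fold enrichment in the window in place of the covered share, the differences were -0.06 for HOXB7 and -0.01 for HOXB9. Groups were apart with silenced lower for 5.76% of the 18942 genes and with silenced higher for 1.45%, and no member was apart with silenced higher.

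The smallest p-values in the other direction belonged to HOXA9 and HOXC4. The HOXA9 values given above differed by 0.23 (limma, adjusted p = 0.975), and they overlapped. HOXC4 was covered over 6.28, 6.74 and 3.91% in the silenced and 5.29, 4.99 and 4.29% in the control libraries, a difference of 0.27 (limma, adjusted p = 0.975). No member had peaks in 3 libraries of a single group with the other group empty. Of all genes, 0.11% had that pattern for the silenced and 0.0799% for the control libraries.

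**Figure D5:**
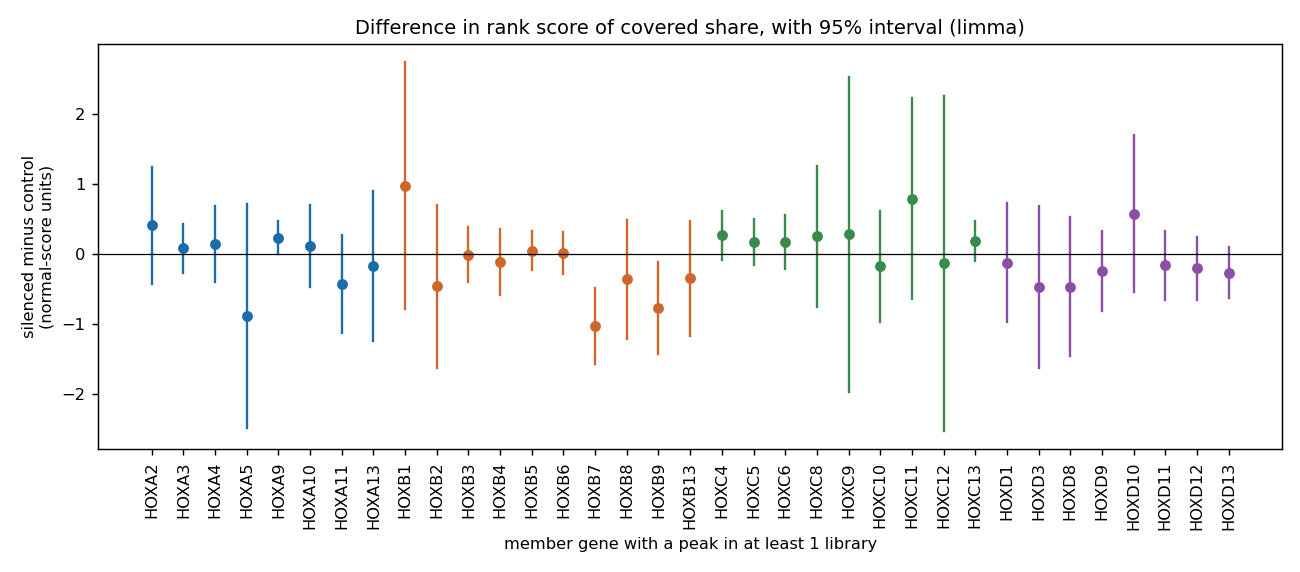
Difference in rank score of covered share, silenced minus control (normal-score units), with its 95% interval from limma, for the 35 HOX genes with a peak in at least 1 library, coloured by cluster. The intervals of HOXB7 and HOXB9 lie below 0, and those of the other 33 genes cross it.

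Region by region the result was the same. Fold enrichments of the 37284 regions called in all libraries were ranked and compared with limma in the same way, which called 0% of regions in either direction after adjustment. Before adjustment 4.68% had a p under 0.05, 1.98% higher and 2.7% lower in silenced cells. Of the 31 HOX regions 16 were higher and 15 lower, and 2 had an unadjusted p under 0.05, 1 in each direction (smallest adjusted p 0.963). The region over the HOXA10 start (chr7:27179757-27180256) had heights of 19, 21 and 8 in the silenced and 15, 11 and 4 in the control libraries, with a score difference of 1.23 (limma, adjusted p = 0.963). Control 3 was the lowest library, and without it the difference was 0.52. The region 295 bp inside HOXD8 (chr2:176130000-176130897) had heights of 6, 9 and 2 in the silenced and 9, 12 and 11 in the control libraries, a difference of -1.03 (limma, adjusted p = 0.963), which was -0.67 without silenced 3. Next in line was a region inside HOXB6 (chr17:48602372-48602917), with heights of 23, 28 and 15 in the silenced and 19, 31 and 16 in the control libraries and a difference of 0.55. A region inside HOXA3 (chr7:27136429-27136774), with heights of 11, 15 and 3 against 21, 17 and 10, followed at -0.78. In both the heights of the groups overlapped. Of the 96 HOX regions, none had peaks in 3 libraries of a single group with the other group empty.

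The genes that work with HOX proteins were read the same way, from lists drawn up for HOX biology. All 9 TALE partners (PBX, MEIS and PKNOX genes) had a peak in every library, as did all 16 Polycomb and all 11 trithorax and MLL genes. Their median covered shares were 2.203, 3.78 and 4.26%, against the 2.75% of the median gene and the 5.35% of the median HOX gene. No gene of these 3 lists passed the adjusted limma test. Before adjustment 2 Polycomb genes (CBX7 and PHC2) and WDR5, a subunit of MLL complexes, had a p under 0.05, lower in silenced cells, where 2.35% of all genes did. Of the 6 ParaHox genes, the sister family outside the clusters, 4 had a peak in every library, and CDX4 had none in any.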

How the data were processed

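The data were 6 peak lists of ATAC-seq libraries, 3 from silenced and 3 from control cells, called by the authors separately for each library, per the peak names in the files. Per the submitters' processing notes, the tools were Trimmomatic 0.36, Bowtie2 2.2.6, Picard 2.8.2, MACS2 2.1.1 and bedtools 2.25.0 with GRCh38; their parameters, duplicate removal and any shift of read ends for the transposase are not given in the sources used here. Per the file headers, the authors deposited for each peak a fold enrichment (a ratio to background), a p-value, a false discovery rate (an adjusted p-value) and a pileup signal, here called height. Every deposited p-value was at most 0.00987 and no peak was shorter than 200 bp. No scaling of heights between libraries is stated, so they were ranked within a library or given as they are.

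Gene spans, promoters and miRNAs were from RefSeq (GRCh38.p14), and positions count from 1. Where the tables gave no start, either gene end stood for it. Exons and introns were not analysed here. Local background was read back from each peak as (height + 1) / fold - 1, the usual form of this fold, which the headers do not state. Covered share was the percent of window bases inside peaks. Counts and shares per library were compared by two-sided exact permutation tests, clusters and paralogue classes by exact sign-flip tests over libraries, and genes and regions by limma 3.58.1 (R 4.3.3) on normal scores, all with Benjamini-Hochberg adjustment at 0.05. Ranks, overlaps and exact tests were computed in Python 3.11.15. The limma step was tested on simulated data with 200 shifted genes or regions.

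The members and lists were chosen with earlier results of these data known. One gene of the lists is not reported here and was left out of their counts. Genes described library by library were, by rule, the most and least covered member of each cluster, the members with the smallest limma p in each direction and those with no peak; the same rule chose regions. Other genes are described by means. Alternatives were other peak sets, flanks of 0 and 5 kb, other ranks and filters, each library left out and a replicate block.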

Additional observations from a re-analysis of the deposited data

How the results depend on the processing

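The exact tests between groups could not pass at 3 libraries a group, so only values and directions (silenced minus control) are compared here. HOX genes with a peak, 0.667 more in silenced libraries, were 3.67 fewer (-3.67) with strict peaks, -0.667 with equal list sizes, -1 with heights of at least 4 and -0.333 without a flank. The HOXA share turned to 0.0712 with equal list sizes, and the HOXC share to -0.178 with heights of at least 4. Leaving out 1 library at a time gave -0.333 to 1.67 for HOX genes with a peak, -3.83 to 2.83 for HOX peaks, -2.83 to 0.167 for starts, and shares (in points) of -1.15 to 0.0156 for all clusters, -0.849 to 0.210 for HOXA, -1.63 to -0.461 for HOXB, -0.114 to 0.950 for HOXC and -2.20 to -0.740 for HOXD. The cause of these sign changes was not tested.

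Between clusters, HOXA minus HOXD became 0.282 with strict peaks. Without a flank HOXA minus HOXB became -1.06, HOXA minus HOXC -0.374 and HOXB minus HOXD 0.561. HOXB minus HOXC became -0.159 with a 5 kb flank and -1.08 over whole cluster stretches, an alternative added after seeing the data. Leave-one-out ranges were 0.0460 to 0.403 (HOXA minus HOXB), 0.184 to 0.452 (HOXA minus HOXC), -1.12 to -0.358 (HOXA minus HOXD), -0.159 to 0.365 (HOXB minus HOXC), -1.17 to -0.643 (HOXB minus HOXD) and -1.54 to -0.784 (HOXC minus HOXD). Anterior minus central passed at -1.27 with equal list sizes, -1.40 with heights of at least 4 and -1.53 with a 5 kb flank, and anterior minus posterior at -2.31, -2.38 and -1.29 in the same order. Anterior minus central was smaller with strict peaks, -0.274, and with bases of 1 class only, -0.555, an alternative added after seeing the data, and did not pass in either. Central minus posterior became 1.32 without a flank and 0.241 with 5 kb. Leave-one-out ranges were -1.33 to -0.824, -2.28 to -1.76 and -1.22 to -0.728 for anterior minus central, anterior minus posterior and central minus posterior.

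Cluster windows minus surroundings stayed positive with each library left out, at 3.12 to 3.44 (HOXA), 1.63 to 2.08 (HOXB), 1.52 to 1.82 (HOXC) and 4.48 to 5.32 (HOXD), with an exact p of 0.0625, the smallest that 5 libraries allow. The gene fit called 0 genes as reported and 10 with strict peaks, no member among them, and the HOXA9 difference turned to -0.0555 by highest fold. Leaving out any 1 library gave 0 genes and 0 regions called.

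With the replicate block, 0 genes and 0 regions were called, the all-cluster share difference stayed at -0.633, and no other call changed. Same-numbered libraries did not deviate together (correlations across genes of -0.0260 to 0.0189), so the numbers were not taken to pair the samples. Depth limits what a missing peak shows: control 2 lists no height under 3, and silenced 3 has the lowest background.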

Other observations

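Between the HOX genes lie non-coding genes that the clusters are known for, and some of their peaks were those already counted for HOX genes. Of 18 genes listed as HOX cluster lncRNAs (one of them, PRAC2, is protein-coding in the annotation), 10 had a peak in every library and none lacked a peak in all of them. Of all protein-coding genes 79.4% had a peak in every library and 5.45% in none, and the share over all lncRNA genes was not computed. Regions at HOXC10, HOXA2 and the HOXA13 start lay also over HOXC-AS3, HOTAIRM1 and HOTTIP, in that order. HOXC-AS3, beside HOXC10, was covered over 13.2, 16.7 and 5.82% of its window in the silenced and 11.3, 12.9 and 18.4% in the control libraries, and HOTAIRM1, at the low-numbered end of HOXA, over 12.3, 10.4 and 12.5% against 6.52, 11.4 and 16.8%. In both genes the groups overlapped. HOTAIR, a lncRNA studied for its link with Polycomb proteins, had a peak in 3 libraries (silenced 2, silenced 3 and control 3) and no strict peak, and HOTTIP, at the HOXA13 end, had a peak in every library. EVX2, the homeobox gene next to HOXD13, was covered over 7.40, 9.08 and 5.12% against 9.08, 9.31 and 8.49%, with the groups overlapping, and EVX1, beyond HOXA13, had peaks in 3 libraries and no strict one.

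The clusters also carry the miR-10 and miR-196 families, which target HOX messages. Their 5p strands, from RefSeq, are printed with the seed (bases 2 to 8) in capitals to show that miR-196a and miR-196b share theirs, AGGUAGU, and that miR-10a has another.
hsa-miR-196a-5p: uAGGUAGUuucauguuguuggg
hsa-miR-196b-5p: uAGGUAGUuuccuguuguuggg
hsa-miR-10a-5p: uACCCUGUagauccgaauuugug
The 3 hairpin genes of the shared seed differed: MIR196A2 in HOXC had a peak within 2 kb in 4 libraries, and MIR196B in HOXA and MIR196A1 in HOXB in 1 each, both in silenced 2 with a height of 4. MIR10A in HOXB had a peak in 4 libraries (silenced 2 and all 3 control libraries), and MIR10B in HOXD in 1. MIR615, MIR3185 and MIR7704 had a peak in every library; MIR7704 lies at the HOXD1 start and shares its region. The lists hold no RNA, so no level of these miRNAs was measured.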
